A study of Mus musculus with 8 samples.

Results

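The antiviral interferon-stimulated genes are 35 named genes: the transcription factors Irf1, Irf7, Irf8, Irf9 and Stat2, sensors of viral RNA or DNA, the OAS and IFIT families, other antiviral effectors, and Isg15 with its protease Usp18 and further regulators. They were listed by symbol, with earlier results of these data known. All 35 were found in each of the 8 count files, among 54446 entries in the colon files and 55341 in the culture files. RNA was sequenced from mouse CD4+ T cells, and the series asks, by its title, about the nuclear receptor RORα and mTORC1 activity in colitis driven by T cells. Knockout cells carried floxed Rora alleles and a Cre driven by Cd4 (Cd4-cre Rora fl/fl), and control cells the floxed alleles alone (Rora fl/fl). Cre from Cd4 acts in the whole T cell lineage that passes through CD4 expression, and the floxed part of Rora is not named in the labels. The colon groups were 2 knockout and 2 control libraries of CD4+ T cells taken 6 weeks after naive cells were given to Tcrbd-/- mice, which have no αβ or γδ T cells of their own but keep B cells and myeloid cells. The culture groups were naive cells kept for 4 days on antibodies to CD3 and CD28, either in IL-23, IL-1β and IL-6 (here the IL-23 mix) or in TGF-β and IL-6 (here the TGF-β mix), as 1 knockout and 1 control library per mix. All cells, controls included, were restimulated over 2 hours with PMA plus ionomycin ahead of RNA extraction.

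Type I and type III interferons bind receptors that activate JAK kinases, which phosphorylate STAT proteins. STAT2 and IRF9 are parts of the complex ISGF3, which binds the interferon-stimulated response element (ISRE), whereas interferon-γ acts mainly through the gamma-activated site (GAS). The induced genes sense viral nucleic acid, degrade it, block viral translation or budding, or adjust the signal itself, and CD4+ T cells both respond to interferons and, as Th1 cells, make interferon-γ.

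Promoter sequence from RefSeq (GRCm38.p6), from 250 bases before to 50 bases after each annotated start, was at hand for 26 of the 35 members. The ISRE core GAAANNGAAA, read on both strands, occurred in the windows of 12 of these 26, against 3.99% of 27025 genes with a window. The GAS letters TTCNNNGAA, which read the same on both strands, occurred in 9 of the 26, against 9.55% of genes, and the ROR element core TAGGTCA, on both strands, in Trim30a alone, against 2.97% of genes. The GAS and ISRE letters can overlap, and a match describes letters, not binding. Shown here, 5′ to 3′ on the gene's strand, are the 250 bases before 1 annotated start of each of 5 genes that the results below turn on. ISRE or GAS letters are in capitals. Ifit2, Irf1 and Irf8 have 2 windows each, of which only the 1 shown holds such letters. Isg15 (chr4:156200819-156201068, minus strand) holds 3 overlapping ISRE cores and Rsad2 (chr12:26456453-26456702, minus strand) holds 1, while Ifit2 (chr19:34550444-34550693, plus strand) and Irf1 (chr11:53769764-53770013, plus strand) hold 1 GAS each and Irf8 (chr8:120736108-120736357, plus strand) holds 2.
Isg15: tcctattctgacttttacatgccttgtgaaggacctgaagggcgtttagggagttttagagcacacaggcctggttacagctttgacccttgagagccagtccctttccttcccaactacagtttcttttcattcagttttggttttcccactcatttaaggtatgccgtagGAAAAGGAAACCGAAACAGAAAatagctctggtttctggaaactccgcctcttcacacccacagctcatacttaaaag
Rsad2: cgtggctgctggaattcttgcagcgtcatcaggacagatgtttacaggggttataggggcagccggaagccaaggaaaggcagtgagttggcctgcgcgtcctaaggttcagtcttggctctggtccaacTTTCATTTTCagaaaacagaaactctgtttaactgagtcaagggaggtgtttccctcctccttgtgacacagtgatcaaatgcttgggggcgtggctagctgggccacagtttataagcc
Ifit2: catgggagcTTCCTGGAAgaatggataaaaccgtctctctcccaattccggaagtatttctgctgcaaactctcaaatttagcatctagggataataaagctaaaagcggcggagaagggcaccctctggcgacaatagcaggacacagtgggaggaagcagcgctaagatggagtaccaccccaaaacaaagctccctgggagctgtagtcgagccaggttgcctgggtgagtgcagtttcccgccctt
Irf1: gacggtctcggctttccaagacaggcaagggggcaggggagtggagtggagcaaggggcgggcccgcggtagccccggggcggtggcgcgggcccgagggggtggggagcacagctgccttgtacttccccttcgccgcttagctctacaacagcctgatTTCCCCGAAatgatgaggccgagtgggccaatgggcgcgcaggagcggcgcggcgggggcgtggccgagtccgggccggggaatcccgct
Irf8: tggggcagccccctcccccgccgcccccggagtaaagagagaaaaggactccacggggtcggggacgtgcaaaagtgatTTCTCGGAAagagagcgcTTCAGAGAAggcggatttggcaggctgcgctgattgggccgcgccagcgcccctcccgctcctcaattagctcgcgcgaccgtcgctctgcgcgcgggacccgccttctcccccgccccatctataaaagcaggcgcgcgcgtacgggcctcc

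Library totals ran from 13176752 to 15922696 counts. Rora, on chromosome 9, was lower in the knockout libraries of every setting but still present. It had 133.3 and 148.9 CPM (counts scaled to library size, by TMM) in knockout colon, against 252.1 and 290.3 CPM in control colon, 58.98 CPM in knockout against 151.9 CPM in control cells of the IL-23 mix, and 189.3 CPM in knockout against 498.6 CPM in control cells of the TGF-β mix (edgeR adjusted p = 2.386e-05 in colon and 4.04e-04 in culture). The 14 CD4 T cell markers listed summed to between 7207 and 11700 CPM in the 8 libraries. Some markers of other cells were higher in knockout colon. Macrophage markers summed to 138.6 and 136.1 CPM in knockout colon against 77.7 and 74.3 CPM in control colon, and B and plasma cell markers to 2084 and 2265 CPM in knockout colon against 595.9 and 582.3 CPM in control colon. In bulk samples, fewer cells of a type and less RNA per cell cannot be told apart. The labels do not say whether the colon libraries come from separate mice. The p-values therefore reflect variation among libraries only, and that variation may be technical.

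In colon, members differed between knockout and control libraries, and more were higher than lower in knockout. Of 33 tested, 14 were higher, 5 were lower and 14 did not pass (edgeR quasi-likelihood test, Benjamini-Hochberg adjusted p under 0.05, called here the edgeR adjusted p). Oas2 and Ifi44, with at most 10 counts in any colon library, were not tested. Among all 13101 genes tested, 19.6% were higher and 19.9% lower, and 39.5% were called in all. The median log2 difference, knockout minus control, was 0.20 over the tested members and 0.01 over all tested genes. Both knockout libraries lay above both control libraries for 22 of the 33 tested members (36.1% of all genes tested) and below them for 8 (34.4%), and for Mx2, Usp18 and Xaf1 the groups overlapped. By role, all 3 IFIT genes and 4 of 5 sensors were higher, whereas 3 of 5 transcription factors were lower and 6 of 8 genes of the Isg15 group did not pass. Of the 19 calls, 10 were kept under every alternative setting tried, namely those of Rsad2, Oasl1, Eif2ak2, Ifih1, Ifit2, Irf1, Ddx58 and Parp14, all higher, and of Irf8 and Ifi35, both lower.

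The transcription factors split. Irf1, which is induced by interferon-γ and drives many antiviral genes, had 328.3 and 317.0 CPM in knockout colon, against 216.0 and 211.5 CPM in control colon. Both knockout libraries were above both control libraries, with a log2 difference of 0.59 ± 0.08 (SE, n = 2 each) and an edgeR adjusted p of 1.345e-04. Irf8, a factor of myeloid and lymphoid development that also responds to interferon-γ, had 356.7 and 322.9 CPM in knockout colon, against 556.3 and 562.0 CPM in control colon. The groups lay apart in the other direction, with a log2 difference of -0.72 ± 0.08 and an edgeR adjusted p of 5.719e-05. Both genes carry GAS letters in 1 of their 2 windows and an ISRE core in neither.

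Irf7, which amplifies type I interferon production, had 128.2 and 132.3 CPM in knockout colon, against 170.4 and 155.7 CPM in control colon (log2 difference -0.32 ± 0.08, edgeR adjusted p = 0.00844, and 0.0579 without control replicate 1). Irf9, the DNA-binding part of ISGF3, had 198.3 and 213.2 CPM in knockout colon, against 234.0 and 245.3 CPM in control colon. Its groups were close, and its difference of -0.22 ± 0.08 (edgeR adjusted p = 0.0447) did not pass without control replicate 1 (0.0587), control replicate 2 (0.172) or knockout replicate 1 (0.150). Over 10 alternatives the adjusted p ran from 6.008e-04 to 0.217 for Irf7 and from 0.00659 to 0.808 for Irf9. Stat2, also a part of ISGF3, had 58.2 and 52.4 CPM in knockout colon and 58.8 and 58.7 CPM in control colon, and its difference of -0.09 ± 0.09 did not pass (edgeR adjusted p = 0.472). With library totals in place of TMM, which moves the median of all genes in colon to 0.21, Irf7 and Irf9 did not pass (edgeR adjusted p = 0.217 and 0.808) and the value of Stat2 was 0.10.

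Of the 5 sensors, Ifih1, Ddx58, Zbp1 and Eif2ak2 were higher in knockout colon and Dhx58 did not pass. Ifih1, which encodes the long double-stranded RNA sensor MDA5, had 105.3 and 103.7 CPM in knockout colon, against 63.6 and 68.5 CPM in control colon (log2 difference 0.66 ± 0.08, edgeR adjusted p = 1.297e-04). Ddx58, which encodes the RNA sensor RIG-I, had 79.9 and 78.2 CPM in knockout colon, against 56.8 and 59.1 CPM in control colon (0.45 ± 0.08, edgeR adjusted p = 0.00157). Eif2ak2, which encodes the kinase PKR that halts translation on sensing double-stranded RNA, had 18.9 and 20.7 CPM in knockout colon, against 12.1 and 12.3 CPM in control colon (0.70 ± 0.13, edgeR adjusted p = 0.00123). In these 3 genes the 2 libraries of each group lay close together and the groups did not overlap. Zbp1, a sensor of Z-form nucleic acid, had 69.7 and 74.9 CPM in knockout colon, against 58.8 and 59.9 CPM in control colon. Its difference of 0.29 ± 0.09 passed (edgeR adjusted p = 0.0211), but not without control replicate 1 (0.0898), control replicate 2 (0.0604) or knockout replicate 2 (0.153), and ran from 0.00128 to 0.153 over 10 alternatives. Dhx58, which encodes the regulatory RNA helicase LGP2, had 14.98 and 16.4 CPM in knockout colon and 13.6 and 13.8 CPM in control colon (0.20 ± 0.13, edgeR adjusted p = 0.244).

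Among the OAS genes, Oasl1 and Oasl2 passed and Oas1a and Oas3 did not, and the difference between these pairs was not tested. Oasl1, which in mouse restrains translation of Irf7, had 16.5 and 14.5 CPM in knockout colon, against 8.12 and 6.99 CPM in control colon, and the groups lay well apart (log2 difference 1.04 ± 0.15, 2.05-fold, edgeR adjusted p = 3.512e-04). Oasl2 had 12.3 and 10.9 CPM in knockout colon, against 8.36 and 7.57 CPM in control colon (0.54 ± 0.16, edgeR adjusted p = 0.0170), and did not pass without control replicate 2 (0.0846) or knockout replicate 1 (0.0764), with a range of 0.00325 to 0.0989 over 10 alternatives. Oas1a and Oas3 encode synthetases of 2′-5′ oligoadenylate, the activator of RNase L, and did not pass, with differences of 0.18 ± 0.18 and 0.19 ± 0.09 (edgeR adjusted p = 0.448 and 0.117). Of the 50-base stretches of Oas1a exons, 57.6% also occur in the neighbouring copies Oas1g and Oas1b, so its counts are uncertain.

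The IFIT genes encode proteins that bind foreign 5′ ends of RNA or translation factors. Ifit1 had 37.7 and 46.0 CPM in knockout colon, against 31.4 and 34.1 CPM in control colon. Ifit2 had 13.2 and 10.9 CPM in knockout colon, against 7.55 and 7.64 CPM in control colon. Ifit3 had 7.56 and 7.88 CPM in knockout colon, against 5.04 and 4.21 CPM in control colon. All 3 were higher in both knockout libraries than in either control library, by 0.35 ± 0.11 for Ifit1 (edgeR adjusted p = 0.0291), 0.67 ± 0.16 for Ifit2 (0.00657) and 0.74 ± 0.18 for Ifit3 (0.00729) on the log2 scale. The call of Ifit1 was lost without control replicate 1 (0.101) or knockout replicate 2 (0.303), with a range of 0.00172 to 0.303 over 10 alternatives. Ifit3 shares 51.2% of its 50-base stretches with Ifit3b and is uncertain for that reason, and it did not pass in DESeq2 (adjusted p = 0.0578, the highest of 10 alternatives that ran from 0.00186).

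Of the other antiviral effectors, Rsad2 had the largest difference of the 33 tested members. Rsad2 encodes viperin, which makes a chain-terminating nucleotide, and had 19.9 and 17.2 CPM in knockout colon, against 7.96 and 7.21 CPM in control colon. These rest on 292 and 267 counts in knockout colon, against 98 and 101 counts in control colon, and the groups lay far apart, with a log2 difference of 1.29 ± 0.15, a fold of 2.45 and an edgeR adjusted p of 6.288e-05. Samhd1, which depletes the nucleotides that viruses need, had 216.1 and 206.4 CPM in knockout colon, against 179.5 and 160.9 CPM in control colon (0.31 ± 0.08, edgeR adjusted p = 0.0113, and 0.117 without control replicate 2, the highest of 10 alternatives that ran from 4.442e-04). Cmpk2, a mitochondrial nucleotide kinase gene next to Rsad2, had 11.9 and 11.6 CPM in knockout colon, against 8.85 CPM in each control library (0.40 ± 0.15). Its edgeR adjusted p of 0.0451 lay near the threshold and was 0.0991 to 0.134 without any 1 of the 4 libraries, in a range of 0.00690 to 0.227 over 10 alternatives. Bst2, which encodes tetherin, was the effector that was lower, with 42.1 and 38.2 CPM in knockout colon, against 48.1 and 49.6 CPM in control colon (-0.28 ± 0.09, edgeR adjusted p = 0.0325). That call was lost without control replicate 2 (0.0965) or knockout replicate 2 (0.178), and with library totals (0.461), which was the highest of 10 alternatives that ran from 0.0102.

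Mx1, Mx2, Isg20 and Trim30a did not pass. Trim30a, a RING-domain regulator of inflammatory signalling in mouse, had 38.7 and 48.2 CPM in knockout colon and 36.7 and 36.8 CPM in control colon (0.24 ± 0.11, edgeR adjusted p = 0.113, and 0.0145 without knockout replicate 1, in a range of 0.0110 to 0.764 over 10 alternatives). The dynamin-like GTPase gene Mx1 differed by 0.28 ± 0.16 and the exonuclease gene Isg20 by -0.10 ± 0.10 (edgeR adjusted p = 0.186 and 0.438). Mx2, annotated as a polymorphic pseudogene, had 16 to 36 counts per library, and its value of 0.16 ± 0.38 became -0.41 without control replicate 2.

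Of Isg15 and the 7 genes grouped with it, Parp14 was higher, Ifi35 was lower and 6 did not pass. Isg15, a ubiquitin-like protein joined to other proteins, had 68.6 and 75.7 CPM in knockout colon and 87.5 and 77.2 CPM in control colon. Both knockout values lay below both control values, but the difference of -0.19 ± 0.09 did not pass (edgeR adjusted p = 0.130) and was 0.00 with library totals (edgeR adjusted p from 0.0501 to 0.986 over 10 alternatives). Usp18, which removes ISG15 from proteins and blocks the type I receptor, overlapped between the groups, with 10.5 and 12.7 CPM in knockout colon and 12.1 and 10.9 CPM in control colon. Parp14, an ADP-ribosyltransferase, had 157.0 and 152.9 CPM in knockout colon, against 122.8 and 108.6 CPM in control colon (0.42 ± 0.09, edgeR adjusted p = 0.00243). Ifi35, which binds the partner protein NMI, had 82.3 and 77.0 CPM in knockout colon, against 118.7 and 106.3 CPM in control colon (-0.50 ± 0.09, edgeR adjusted p = 0.00108). For Parp14 and Ifi35 the groups lay apart, in opposite directions. Of the exonic bases of Ifi35, 16.8% lie opposite the antisense gene Gm11626, and the labels give no strand setting for the counting. Parp9, Dtx3l, Rtp4 and Xaf1 differed by between -0.01 and 0.15 and did not pass. With library totals 7 further members were called higher, with edgeR adjusted p of 0.00763 for Parp9, 0.0131 for Dtx3l, 0.0204 for Rtp4, 0.0347 for Mx1, 0.0304 for Dhx58, 0.00558 for Oas3 and 0.0110 for Trim30a. Parp9 and Dtx3l overlap on opposite strands over 9.4% and 8.0% of their exonic bases, and Rtp4 shares 13.6% of its 50-base stretches with Gm45338.

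**Figure D1:**
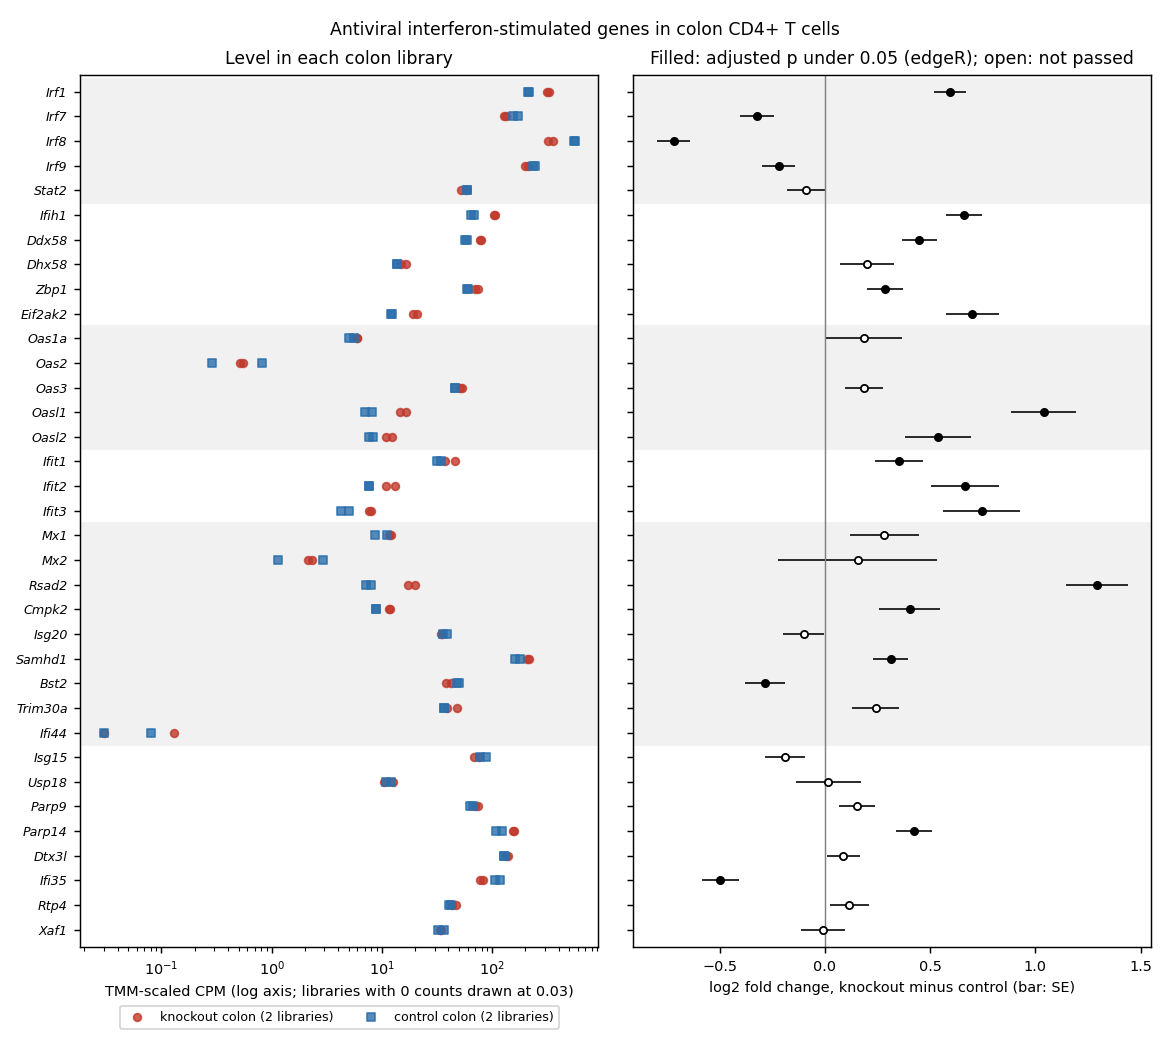
Level and genotype difference of each of the 35 members in colon. Left, CPM after TMM scaling in the 2 knockout (red circles) and 2 control libraries (blue squares) on a log axis, with 0 counts drawn at 0.03; right, log2 difference knockout minus control with its SE, filled where the edgeR adjusted p was under 0.05. Rsad2 and Oasl1 lie farthest to the right and Irf8 farthest to the left.

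Per kilobase of exon, the members spanned a wide range of levels in colon. Isg15 was highest, at 95.4 CPM per kb in knockout colon and 109.0 CPM per kb in control colon, followed in control colon by Irf8 (79.3), Ifi35 (65.2), Bst2 (54.1) and Irf1 (53.8). In knockout colon Irf1, at 81.2 CPM per kb, came second and Irf8, at 48.2 CPM per kb, followed. The genes with the largest differences were low by this measure: Rsad2 had 4.28 CPM per kb in knockout colon and 1.75 CPM per kb in control colon, and Oasl1 5.95 and 2.90 CPM per kb in knockout and control colon.

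Pathway genes outside the members were taken from lists. Of 10 interferon genes listed, 9 had too few counts to be tested in colon, and Ifng, which encodes interferon-γ, was lower, with 1005 and 1094 CPM in knockout colon against 1378 and 1382 CPM in control colon (log2 difference -0.40 ± 0.08, edgeR adjusted p = 0.00224). Among 14 tested genes of the receptors and the JAK-STAT pathway, 3 were higher and 2 lower, beside 19.6% of all genes higher and 19.9% lower. Jak2, a kinase of the interferon-γ receptor and of many cytokine receptors, had 1134 and 1174 CPM in knockout colon against 599.5 and 571.0 CPM in control colon (0.98 ± 0.08, edgeR adjusted p = 5.474e-06). Stat3 had 823.7 and 780.9 CPM in knockout colon against 1211 and 1195 CPM in control colon (-0.58 ± 0.08, edgeR adjusted p = 1.574e-04). Both Jak2 and Stat3 lay apart between the groups, in opposite directions.

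Of 9 tested negative regulators, Ptpn2 was higher and Socs3, Ptpn1 and Adar were lower, with Socs3, an inhibitor of JAK signalling, at 309.3 and 275.0 CPM in knockout colon against 500.5 and 485.9 CPM in control colon (-0.76 ± 0.08, edgeR adjusted p = 4.949e-05). Among 58 further interferon-stimulated genes tested, 16 were higher and 15 lower. Both shares stand against the 19.6% and 19.9% of all genes, and the 2 directions were close to even. Of the 12 tested genes of nucleic acid sensing and its adaptors, 4 were higher and 3 lower. The chemokine gene Cxcl10 had 50.1 and 56.1 CPM in knockout colon against 19.2 and 18.1 CPM in control colon (1.51 ± 0.11, edgeR adjusted p = 2.406e-06). Ly6e, which restricts coronavirus entry, had 741.0 and 754.9 CPM in knockout colon against 1661 and 1495 CPM in control colon (-1.08 ± 0.08, edgeR adjusted p = 4.455e-06). The further interferon-stimulated genes were thus near even in direction, whereas 14 members were higher and 5 lower, a contrast that was not tested.

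Markers of several other cell types moved with these differences, beside 19.6% of all genes higher and 19.9% lower. Of the tested markers, 8 of 11 for macrophages, 3 of 3 for plasmacytoid dendritic cells, 5 of 7 for B and plasma cells, 9 of 10 for epithelium and 8 of 9 for fibroblasts were higher in knockout colon, and 11 of 14 for CD4 T cells were lower. Summed levels were 226.7 and 224.6 CPM in knockout colon against 156.8 and 153.4 CPM in control colon for dendritic cells (3 of 6 higher, 2 lower), and 58.0 and 55.3 CPM in knockout colon against 29.6 and 28.2 CPM in control colon for plasmacytoid dendritic cells, of which Siglech was under 1 CPM in every colon library. Epithelial markers summed to 133.4 and 133.6 CPM in knockout colon against 49.7 and 46.5 CPM in control colon, and CD4 T cell markers to 8869 and 8726 CPM in knockout colon against 11700 and 11210 CPM in control colon. Other lists were close between the groups. Markers of NK and innate lymphoid cells summed to 46.7 and 59.9 CPM in knockout colon against 46.6 and 53.2 CPM in control colon (2 higher and 1 lower of 5 tested), those of endothelium to 106.9 and 104.4 CPM in knockout colon against 107.5 and 101.4 CPM in control colon (2 higher of 4 tested), and those of neutrophils to 1.36 and 2.33 CPM in knockout colon against 1.38 and 2.14 CPM in control colon (1 tested, not passed). The part of these cells in the members' differences was not tested.

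In culture no member was called for genotype, and Irf1 came nearest. None of 34 tested members passed (edgeR quasi-likelihood fit with terms for mix and genotype, 1 residual degree of freedom), where 4 of 13983 genes did (0.0286%). At an unadjusted p under 0.05 there were 5 members, namely Irf1, Irf8, Dtx3l, Parp14 and Ifi44, against 500 genes (3.58%), and DESeq2, edgeR with RLE size factors and edgeR with library totals each called 1 member, Irf1. The median log2 difference was 0.14 over the tested members and 0.00 over all tested genes. Irf1 had 75.6 CPM in knockout and 38.8 CPM in control cells of the IL-23 mix, and 37.1 CPM in knockout and 25.0 CPM in control cells of the TGF-β mix. It was higher in knockout cells of both mixes (log2 difference 0.78 ± 0.11, n = 2 mixes), with an edgeR adjusted p of 0.148 that ran from 0.00903 to 0.9498 over 4 alternatives.

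Within each mix, 1 library was set against 1, so no test was possible and intervals cover counting error only. In the IL-23 mix the ratio of knockout to control was above 1 for 31 of 34 tested members (49.3% of all genes), with a median log2 ratio of 0.20. The 95% counting interval lay above 1 for 16 of the 34 (11.5% of all genes) and below 1 for Isg20 alone (10.1%). Ifi44 had the highest ratio, 2.20 (1.46 to 3.38), at 5.08 CPM in knockout and 2.30 CPM in control cells, and Xaf1, Stat2 and Parp14 had 1.46 (1.21 to 1.76), 1.44 (1.30 to 1.60) and 1.44 (1.34 to 1.56). In the TGF-β mix 16 of 34 tested members were above 1 (50.1% of all genes), and the interval lay above 1 for Irf1 and Irf8 (9.01% of all genes) and below 1 for no member (8.75%). Stat2 there had 8.15 CPM in knockout and 8.99 CPM in control cells, a ratio of 0.907 (0.709 to 1.16), and Parp14 17.8 and 18.6 CPM in knockout and control cells, a ratio of 0.957 (0.810 to 1.13). Whether the genotype difference depends on the mix was tested, by a contrast added after the data were seen, in a fit of all 8 libraries as 6 groups, where the spread comes from the colon pairs (2 residual degrees of freedom) and the culture libraries are assumed to vary like them. None of the 35 members passed in this edgeR fit, where 5 of 14886 genes did (0.0336%). At an unadjusted p under 0.05 in the edgeR fit there were 5 members, namely Cmpk2, Parp14, Stat2, Irf1 and Trim30a, against 481 genes (3.23%). For Cmpk2 this rests on 0 counts in knockout and 5 in control cells of the TGF-β mix. In the IL-23 mix Cmpk2 had 54 and 53 counts in knockout and control cells. The contrast, IL-23 mix minus TGF-β mix, was 0.66 ± 0.23 for Stat2 and 0.59 ± 0.20 for Parp14 (edgeR adjusted p = 0.9999 for both).

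**Figure D2:**
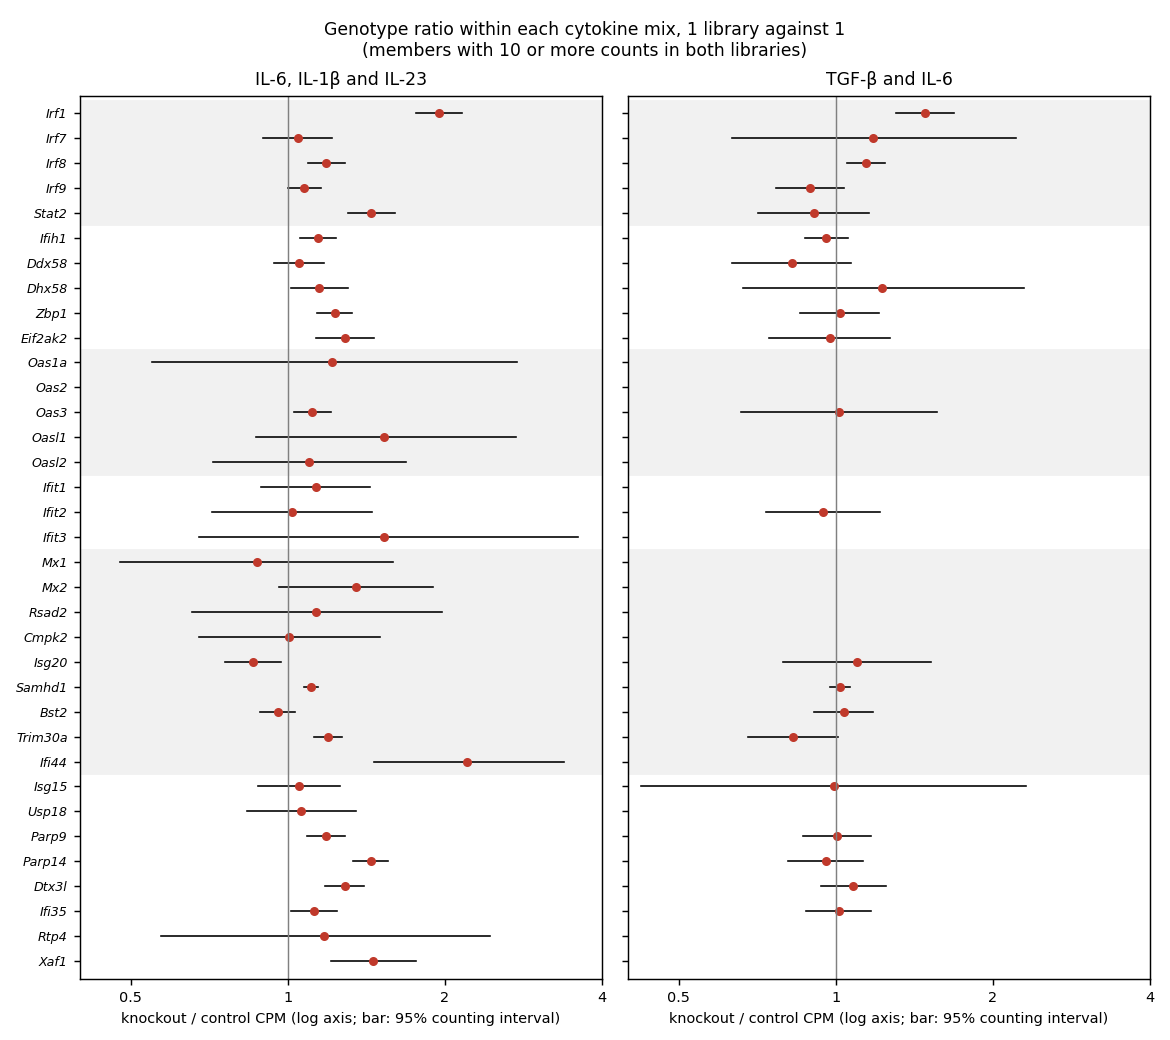
Ratio of knockout to control CPM in the IL-23 mix (left) and the TGF-β mix (right) for members with 10 or more counts in both libraries, on a log axis with the 95% counting interval. Most points of the left panel lie to the right of 1, with Ifi44 and Irf1 farthest out, and in the right panel the intervals of Irf1 and Irf8 clear 1.

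The cytokine mix made the largest difference within culture. Of the 34 tested members 32 were higher in the IL-23 mix than in the TGF-β mix, Ifit2 was lower and Irf8 did not pass, among 35.8% of all genes higher and 34.0% lower (69.8% called in all). The filter fixes part of this count. Of the 34, 12 had under 10 counts in both TGF-β mix libraries and passed the filter only through the IL-23 mix. Of the other 22 tested members 20 were higher, 1 was lower and 1 did not pass, with a median log2 difference of 2.21, against 0.02 over all tested genes. Of these 22, 18 were at least 2-fold higher and 6 at least 10-fold. Among all 13983 tested genes, the ratio of the IL-23 mix library to the TGF-β mix library was at least 2-fold for 2613 within knockout cells. Within control cells it was so for 2647. These are ratios of 1 library to 1, whereas the folds of the 22 members are from the fit, an unlike measure. No share of all genes was taken for the 10-fold count or for the same cut on counts. In DESeq2 29 members were higher, and the calls of Ifi44, Mx1 and Ifit3 were lost (adjusted p = 0.0924, 0.0736 and 0.151).

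Oas3 was the member with the largest difference among these 22. It had 79.8 CPM in knockout and 71.6 CPM in control cells of the IL-23 mix, against 2.88 CPM in knockout and 2.85 CPM in control cells of the TGF-β mix (log2 difference 4.72 ± 0.12, 26.3-fold). Dhx58 had 34.3 and 29.8 CPM in knockout and control cells of the IL-23 mix, against 1.63 and 1.33 CPM in knockout and control cells of the TGF-β mix (4.43 ± 0.15). Isg15 had 16.7 and 15.9 CPM in knockout and control cells of the IL-23 mix, against 0.815 and 0.823 CPM in knockout and control cells of the TGF-β mix (4.31 ± 0.20). In all 3 the libraries of a mix were close to each other, whichever the genotype, and the mixes did not overlap. Irf7 (3.98 ± 0.17), Usp18 (4.28 ± 0.31) and Trim30a (3.40 ± 0.12) followed the same order. The ISGF3 genes Irf9 and Stat2 were higher by 2.13 ± 0.10 and 2.50 ± 0.15.

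Samhd1 and Irf1 differed less than the median member. Samhd1 had 600.8 and 542.3 CPM in knockout and control cells of the IL-23 mix, against 238.4 and 234.0 CPM in knockout and control cells of the TGF-β mix (1.27 ± 0.07). Ifih1 was higher by 0.53 ± 0.09, the smallest called difference among the higher members, and Irf1 by 0.85 ± 0.11. Irf8 had 81.8 and 68.9 CPM in knockout and control cells of the IL-23 mix, and 76.3 and 66.8 CPM in knockout and control cells of the TGF-β mix, and did not pass (0.07 ± 0.07, edgeR adjusted p = 0.402). Ifit2 was the member lower in the IL-23 mix. It had 4.43 and 4.35 CPM in knockout and control cells of the IL-23 mix, against 7.84 and 8.29 CPM in knockout and control cells of the TGF-β mix, with no overlap (-0.88 ± 0.18, edgeR adjusted p = 0.00210). In DESeq2 that call was just missed (adjusted p = 0.0510, the highest of 4 alternatives that ran from 7.961e-04).

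For the low members, levels are best given as counts. Ifi44 had 78 and 35 counts in knockout and control cells of the IL-23 mix and 0 in both TGF-β mix libraries, hence at least 19.5-fold higher CPM in the IL-23 mix (against a floor of 3 counts per library), and Oas1a had 16 and 13 counts in the IL-23 mix against 0 and 0 in the TGF-β mix, hence at least 5.02-fold. Rsad2 had 31 and 27 counts in the IL-23 mix against 1 and 2 in the TGF-β mix, a ratio of 20.1 (6.54 to 100.3, 95% counting interval). Ifit1 had 151 and 132 counts in the IL-23 mix against 4 and 5 in the TGF-β mix, and Xaf1 286 and 194 counts in the IL-23 mix against 4 and 8 in the TGF-β mix. Oasl1, Oasl2, Ifit3, Mx1, Mx2, Cmpk2 and Rtp4 likewise had at most 7 counts in either TGF-β mix library. Oas2, at 13 counts or fewer in every culture library, was not tested.

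**Figure D3:**
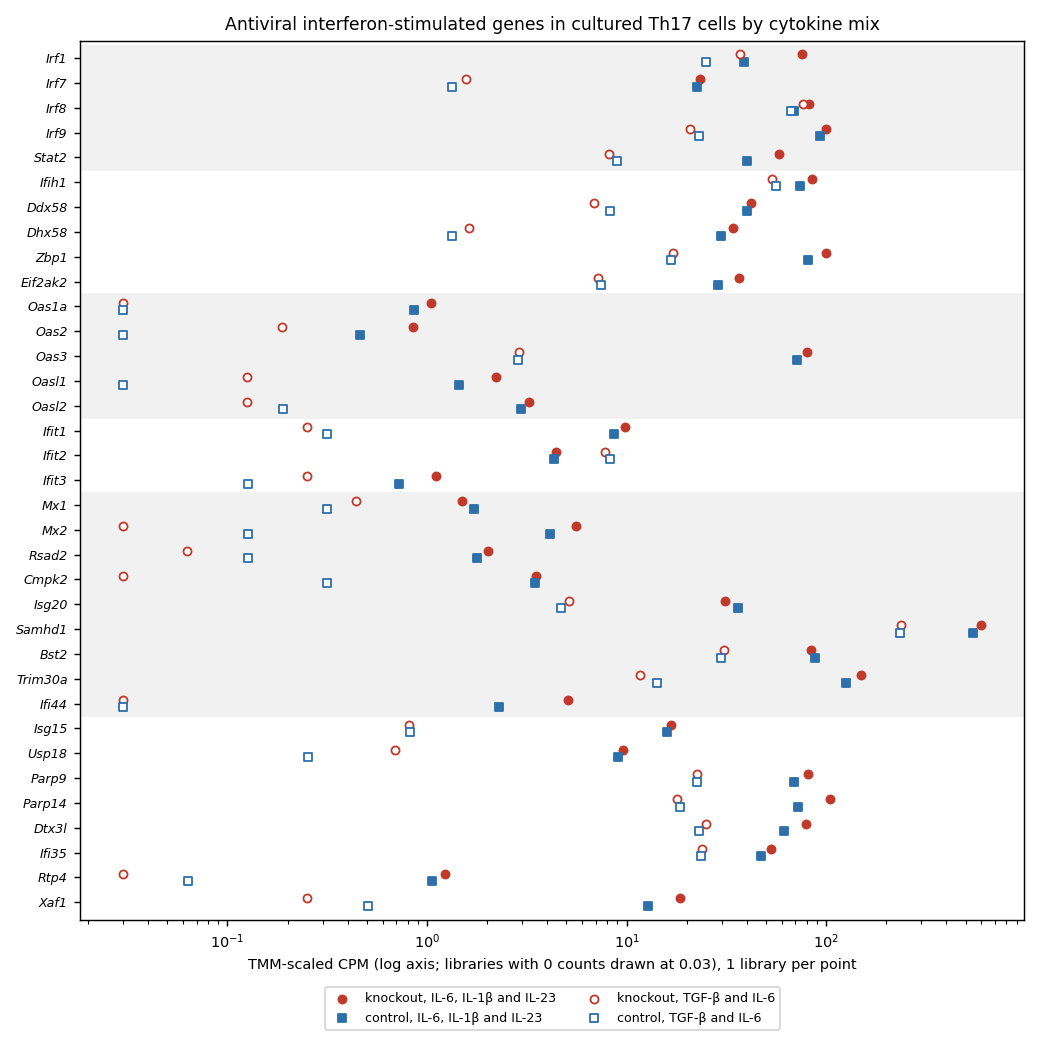
CPM of the 35 members in the 4 culture libraries, 1 library per point on a log axis, with 0 counts drawn at 0.03. Filled symbols (IL-23 mix) lie to the right of open symbols (TGF-β mix) for the members listed except Ifit2, where the order is turned round, and Irf8, where the points fall together.

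The pathway around the members moved with the mix as well. Among 14 tested genes of the receptors and JAK-STAT pathway 11 were higher in the IL-23 mix and 2 lower, beside 35.8% of all genes higher and 34.0% lower. The receptor genes Ifnar1 (0.59 ± 0.08) and Ifnar2 (0.78 ± 0.10) were higher, and Jak2 (-0.84 ± 0.07) and Irf4 (-1.01 ± 0.07) were lower. The negative regulator Socs3 had 331.1 and 354.8 CPM in knockout and control cells of the IL-23 mix, against 34.9 and 33.4 CPM in knockout and control cells of the TGF-β mix (3.33 ± 0.08). Of the further interferon-stimulated genes, 40 of 49 tested were higher and 4 lower beside the same shares of all genes, led by Ifitm1 with 135.6 and 137.1 CPM in knockout and control cells of the IL-23 mix, against 1.003 and 1.076 CPM in knockout and control cells of the TGF-β mix. None of the 10 interferon genes passed the filter in culture.

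Markers of some other cell types were also higher in the IL-23 mix. Dendritic cell markers summed to 216.2 and 225.3 CPM in knockout and control cells of the IL-23 mix, against 22.4 and 28.7 CPM in knockout and control cells of the TGF-β mix, mostly from H2-Ab1 and Batf3. Macrophage markers summed to 41.5 and 42.4 CPM in knockout and control cells of the IL-23 mix, against 6.96 and 6.07 CPM in knockout and control cells of the TGF-β mix, with C1qa, C1qb, C1qc and Lyz2 at 0 counts in all 4 libraries. Fibroblast markers, nearly all from Lum, summed to 411.0 and 446.9 CPM in knockout and control cells of the IL-23 mix, against 2.38 and 2.09 CPM in knockout and control cells of the TGF-β mix, with Col3a1 at 0 counts in all 4. Sums were likewise higher in the IL-23 mix for B and plasma cells (123.6 and 143.0 CPM in knockout and control cells, against 22.6 and 21.3 CPM in the TGF-β mix), neutrophils (102.0 and 85.8 CPM, against 3.95 and 3.35 CPM) and endothelium (77.0 and 69.2 CPM, against 21.6 and 17.1 CPM). They were lower in the IL-23 mix for NK and innate lymphoid cells, at 1.17 and 2.04 CPM in knockout and control cells, against 6.02 and 3.99 CPM in the TGF-β mix. Epithelial markers, at 17.97 and 18.4 CPM in the IL-23 mix against 18.7 and 18.9 CPM in the TGF-β mix, and those of plasmacytoid dendritic cells, at 26.2 and 31.9 CPM in the IL-23 mix against 28.9 and 29.3 CPM in the TGF-β mix, were close. The part of such cells in the difference between mixes was not tested.

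The genotype differences of colon and culture were then compared in a fit of all 8 libraries. The contrast (knockout minus control in colon, minus the same in culture) passed for 4 of 35 members, 2 upwards (Ifih1 and Ddx58) and 2 downwards (Irf8 and Ifi35), among 17.3% of 14886 genes called (7.73% upwards and 9.57% downwards), and 10 members had an unadjusted p under 0.05 (30.4% of genes). Its median was 0.01 over the members and 0.01 over all genes. Irf8 had the smallest adjusted p, at -0.72 in colon and 0.22 in culture (contrast -0.94 ± 0.11, edgeR adjusted p = 1.614e-04). Ifi35 was at -0.50 in colon and 0.10 in culture (contrast -0.60 ± 0.13, edgeR adjusted p = 0.00565). The RNA sensors Ifih1 and Ddx58 were at 0.66 and 0.45 in colon and at 0.07 and -0.03 in culture (contrasts 0.59 ± 0.12 and 0.48 ± 0.14, edgeR adjusted p = 0.00492 and 0.0304). The call of Irf8 held without any 1 of the 8 libraries (0.00439 at most). The call of Ifi35 was lost without the knockout (0.0754) or the control (0.0740) library of the IL-23 mix, and that of Ifih1 without the knockout (0.0907) or the control (0.0885) library of the TGF-β mix. The call of Ddx58 was lost without knockout colon replicate 1 (0.0630) or 2 (0.0596), control colon replicate 1 (0.0828) or any 1 culture library (0.0519 to 0.199), in a range of 0.00526 to 0.199 over 11 alternatives. Rsad2, at 1.29 in colon and 0.10 in culture, had a contrast of 1.18 ± 0.40 that did not pass (edgeR adjusted p = 0.0560, and 0.0283 to 0.436 over 11 alternatives), and Irf1, at 0.59 in colon and 0.78 in culture, had one of -0.19 ± 0.13 (edgeR adjusted p = 0.350). Differences of colon and culture in cell source, in gene annotation and in any batch cannot be told apart.

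**Figure D4:**
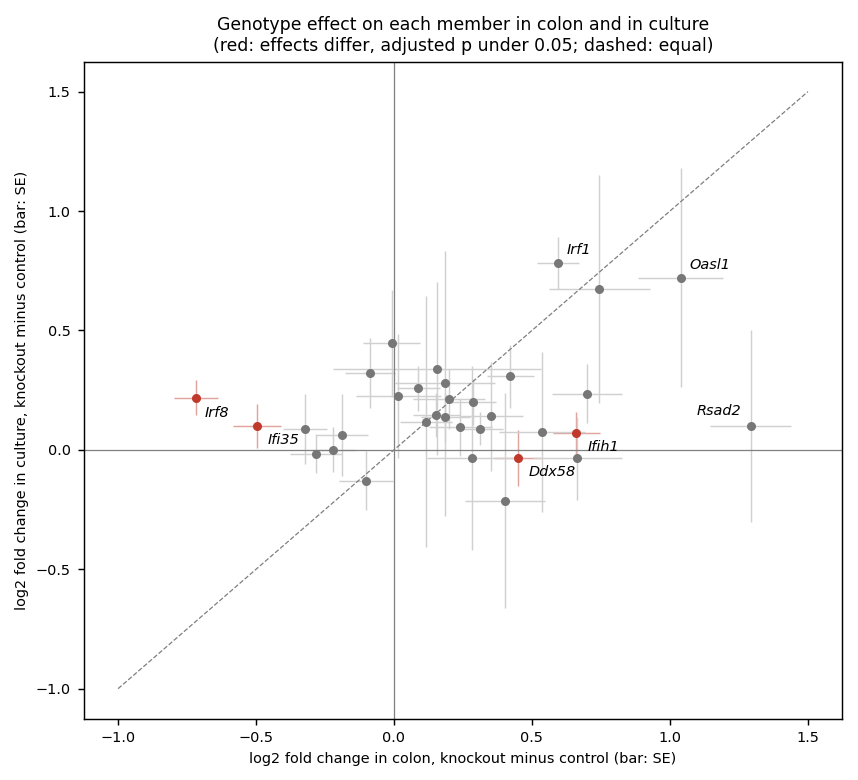
Genotype difference (log2, knockout minus control, bars SE) of the 33 members tested in both settings, colon on the horizontal and culture on the vertical axis. Red points are the 4 members whose differences were themselves different, Irf8 and Ifi35 at the left and Ifih1 and Ddx58 below the dashed line of equality.

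Levels in colon were mostly above those in culture. In CPM scaled over all 8 libraries, all 4 colon libraries lay above all 4 culture libraries for 23 of 35 members (28.6% of all genes), below them for none (26.9%) and overlapped for 12. By test 31 members were higher in colon, 1 was lower and 3 did not pass, among 40.9% of genes higher and 40.6% lower (81.5% called in all), with a median log2 difference of 2.11 over the members and -0.01 over all genes. The median over the members includes the 12 that were tested in culture with under 10 counts in both TGF-β mix libraries. Rtp4, a chaperone gene for certain receptors, had the largest difference, with 45.3 to 51.5 CPM in colon and at most 1.13 CPM in culture (7.92 ± 0.16). In knockout and control cells Rtp4 had 19 and 16 counts in the IL-23 mix and 0 and 1 in the TGF-β mix. Its value is thus imprecise, and ran from 7.44 to 9.04 over 11 alternatives. Isg15 had 75.6 to 96.8 CPM in colon against 0.746 to 15.3 CPM in culture, and Irf7 141.4 to 188.3 CPM in colon against 1.22 to 21.4 CPM in culture, so that even the IL-23 mix stayed below colon.

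The order was turned round for 8 members, for which every colon library lay below both IL-23 mix libraries (38.7% of all genes; the reverse, every colon library above both, held for 23 members and 37.3% of all genes): Samhd1, Trim30a, Bst2, Oas3, Dhx58, Eif2ak2, Mx2 and Ifi44. Samhd1 had 178.5 to 238.3 CPM in colon against 214.0 to 549.4 CPM in culture and was the member lower in colon by test (-0.68 ± 0.06). Trim30a had 40.6 to 53.2 CPM in colon against 10.7 to 136.8 CPM in culture, and Oas3 50.4 to 58.7 CPM in colon against 2.60 to 73.0 CPM in culture, so that colon lay between the mixes for both. Ifi44 was nearly silent in colon, with at most 2 counts in a library. With library totals the median of all genes in this contrast moves to -0.29, and 29 members were higher in colon. The calls of Eif2ak2 (0.28, edgeR adjusted p = 0.0123) and Oas2 (1.44, 0.0275) were then lost (0.939 and 0.0680), that of Eif2ak2 also without the knockout library of the TGF-β mix (0.138) or the control library of the IL-23 mix (0.165), and that of Oas2 also without knockout colon replicate 1 (0.0580) or 2 (0.0502), control colon replicate 1 (0.197), the knockout library of the IL-23 mix (0.147) or the control library of the TGF-β mix (0.135).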

How the data were processed

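Each of the 8 libraries had a deposited table of whole-number read counts for each gene, not normalized, per the file headers. Per the submitters' processing notes, Trim Galore, Bowtie2, featureCounts, edgeR and DESeq2 were used with mm10, and neither their roles nor their versions are stated. Strand setting and read type are not given in the sources used here. Colon files (Ensembl identifiers) and culture files (symbols) were joined by unique symbol for 53657 genes, and up to 27 symbols per file that had been turned into dates, at most 0.269% of a library's counts, were left unnamed. Coordinates and exon lengths are from GENCODE M21 (GRCm38), and promoter sequences from RefSeq (GRCm38.p6).

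Genes were tested in R 4.3.3 with edgeR 4.0.16 (filterByExpr, TMM scaling, quasi-likelihood F-test, Benjamini-Hochberg adjustment over all genes tested, threshold 0.05). Colon libraries were fitted alone (2 residual degrees of freedom). Culture libraries were fitted with terms for mix and genotype (1 residual degree of freedom), which takes each factor as the repeat of the other. All 8 libraries were fitted together for the comparison of colon with culture (3 residual degrees of freedom), and as 6 groups for the contrast of genotype differences between mixes (2 residual degrees of freedom). CPM values are TMM-scaled. Ratios of 1 library to 1 used a prior count of 2 for medians and exact binomial 95% counting intervals. Intervals and the floor of 3 counts per library cover counting error only.

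Alternatives were library totals, RLE size factors, no filter, DESeq2 1.42.0, a replicate block, all 8 libraries for the colon contrast, a prior count of 0.5, and each colon library left out. The contrast between mixes, and leaving out each culture library in the fits of 8, were added after the data were seen. An arm left with 1 library is then assumed to vary like the other groups. The fits were tested on simulated data. Replicate libraries in colon differed beyond counting error (chi-square per gene 5.03 in knockout and 6.85 in control). The members, the pathway and marker lists, and the tests were chosen with earlier results of these data known. All 35 members are accounted for, and other genes were named as those with the smallest adjusted p per list and direction; Ifnar1, Ifnar2 and the markers named were chosen after their values were seen.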

Additional observations from a re-analysis of the deposited data

Results flagged for a closer look

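For 4 of 35 members the genotype difference in colon departed from that in culture by the test of the contrast itself (edgeR quasi-likelihood, Benjamini-Hochberg adjusted, 8 libraries). Among all 14886 genes tested, 17.3% passed the same contrast. The contrast, colon minus culture, was -0.94 for Irf8, which lay below control in both knockout colon libraries and above it in both culture mixes. It was -0.60 for Ifi35, lower in both knockout colon libraries and with ratios of knockout to control of 1.12 (1.01 to 1.24) in the IL-23 mix and 1.01 (0.875 to 1.17) in the TGF-β mix. It was 0.59 for Ifih1, with ratios of 1.14 (1.05 to 1.24) in the IL-23 mix and 0.958 (0.871 to 1.05) in the TGF-β mix. It was 0.48 for Ddx58, with ratios of 1.05 (0.939 to 1.18) in the IL-23 mix and 0.824 (0.633 to 1.07) in the TGF-β mix. Without 1 culture library the calls of Ifi35, Ifih1 and Ddx58 were lost (lost for Ifi35 without a library of the IL-23 mix, for Ifih1 without a library of the TGF-β mix and for Ddx58 without any of the 4), and that of Irf8 held. The part of other cells in colon, of the annotation and of any batch in these contrasts was not tested.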

How the results depend on the processing

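In colon, 14 members higher became 9 in DESeq2 (3658 genes called). The 5 lower became 2 with library totals, 3 in DESeq2 and 3 to 4 when a colon library was left out. With library totals the split of all calls was 4284 higher to 1262 lower, against 2566 to 2607 with TMM, and 21 members were higher and 2 lower. Values that changed sign, none of them past the threshold, were Isg15 at 0.003, Isg20 at 0.092, Stat2 at 0.104 and Xaf1 at 0.184 with library totals, Usp18 at -0.003 with no filter, and, with a colon library left out, Mx2 (-0.405 to 0.944), Usp18 (-0.144 to 0.125) and Xaf1 (-0.111 to 0.075). For genotype in culture, 4 genes called became 9 with library totals, 9 with RLE size factors, 7 in DESeq2 and 0 with no filter, and 0 members higher became 1 with each of the first 3. For the genotype effect in the IL-23 mix minus that in the TGF-β mix, 5 genes called became 23 with no filter and 8 to 28 with a colon library left out, and no member was called in any of the 7 alternatives. For the cytokine mix, 1 member lower became 0 and 32 higher became 29 in DESeq2. For the contrast of genotype differences, 2575 genes became 743 to 2452 with 1 of the 8 libraries left out (743 to 1356 without a culture library), 2 members higher became 0 to 2 and 2 lower became 1 to 3, and 2 higher became 6 with library totals. Stat2, which did not pass, ran from -0.624 to 0.037 with 1 of the 8 libraries left out, and changed sign without a library of the IL-23 mix (0.035 and 0.037). For colon minus culture, 31 members higher became 29 and 1 lower became 2 with library totals, where Bst2 was at -0.209 (edgeR adjusted p = 0.00711) and Trim30a at -0.081. The cause of these changes was not tested.

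Same-numbered colon libraries share only a number in the labels, with 2 pairs and a correlation of deviations of 0.213 over 10958 genes. A replicate block gave 6230 calls, with 15 members higher (Trim30a added) and 5 lower. In the fit of culture alone, leaving out a library leaves no residual degree of freedom. Precision is limited by 2 libraries per colon group, by 1 per culture group, and, in the TGF-β mix, by under 10 counts for 12 tested members.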
